A study of Drosophila melanogaster with 3 samples.

Results

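The genes described here encode the proteins of the cytosolic small (40S) ribosomal subunit of Drosophila melanogaster, and the readout is the presence and position of Plzf-eGFP regions at their transcription start sites (TSSs). The members were the protein-coding genes of the Ensembl annotation whose symbol is RpS followed by a digit, S6 kinase names left out, plus sta, the gene of the subunit protein known as RpSA in other animals. This gave 39 genes of the 13945 protein-coding genes on the chromosome arms, and it used no binding value. A region was counted at a gene when its summit, the deposited point of highest signal, lay within 500 bp of any annotated TSS of that gene.

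The assay was chromatin immunoprecipitation followed by sequencing (ChIP-seq) on whole prepupae, the stage at the onset of metamorphosis, with males and females pooled and the age given as unknown. The animals came from the fly strain CG6792-GFP, in which an inserted transgene makes Plzf, the zinc finger protein encoded by CG6792, with GFP at its C terminus. The description in the labels gives an anti-GFP antibody, and the antibody field names CG6792. The series holds 1 group of 3 biological replicates and no second condition. The promoter that drives the transgene is not given in the sources used here, and a whole-animal sample does not show in which tissue a region was bound. For each replicate and for the pool of all 3 there is a list of 30000 regions, and a further list holds the 7096 peaks that passed the authors' irreproducible discovery rate (IDR) selection on the pool, called IDR peaks here. The number of sequenced reads behind the lists is unknown.

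Each 40S subunit carries a copy of nearly every small-subunit protein, so cells make these proteins in near equal and very large amounts, and many fly mutants that lack a copy of such a gene share the Minute phenotype of slow development and short bristles. The promoters of ribosomal protein genes in flies commonly start transcription at a run of pyrimidines, the TCT initiator, in place of the usual initiator, and use the TBP-related factor TRF2. Several genes of the set have a duplicate copy, and some of the copies, RpS5b and RpS19b among them, are known for expression in the germ line.

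Plzf-eGFP regions were common at these genes, moderate in strength, and centred on the start of transcription. Of the 39 genes, 24 (61.5%) had an IDR peak, against 19.8% of all protein-coding genes. A region of the pooled list, peak or background, was present at 32 members (82.1%), against 42.8% of all protein-coding genes. Of the 32, 75% had an IDR peak, against 46.3% of all protein-coding genes with a pooled region at a TSS. The median IDR signal was 154 at members, with quartiles of 118 and 190, and 169 at other genes, with quartiles of 113 and 301, so peaks were frequent at members, with few of high signal. The summit lay at a median of -20.5 bp from the TSS at members (negative values are upstream), and at -148 bp at other genes.

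Sequence is given here for the promoters of the 3 members with the strongest peaks, RpS27, RpS20 and RpS10b, and that of RpS10a, the copy of RpS10b at which no list held a region. They are from the RefSeq genome, assembly dm6, each read 5′ to 3′ on the strand of the gene. Capitals mark the 11 bases centred on the summit of the IDR peak, and RpS10a, with no summit, has none. The windows of RpS27, RpS10b and RpS10a run from 80 bases before to 20 bases after a TSS, and that of RpS20 covers 50 bases on each side of a summit that lay further upstream.
RpS27 (chr3R:25247494-25247594, minus strand): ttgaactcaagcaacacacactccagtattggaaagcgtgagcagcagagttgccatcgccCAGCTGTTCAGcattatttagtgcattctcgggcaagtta
RpS20 (chr3R:20821982-20822082, plus strand): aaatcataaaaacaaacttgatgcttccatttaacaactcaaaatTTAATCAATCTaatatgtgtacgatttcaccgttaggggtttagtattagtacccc
RpS10b (chrX:19597951-19598051, plus strand): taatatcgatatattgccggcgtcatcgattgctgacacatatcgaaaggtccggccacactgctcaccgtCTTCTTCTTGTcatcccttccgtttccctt
RpS10a (chr3R:27652680-27652780, plus strand): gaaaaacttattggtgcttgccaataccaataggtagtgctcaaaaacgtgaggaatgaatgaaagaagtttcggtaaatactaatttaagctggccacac
The summits of RpS27 and RpS10b sat beside the TSS in sequence of mixed composition, with a GC content of 48.5% and 50.5% within 50 bp. The summit of RpS20 sat in sequence rich in A and T, with 30.7% GC.

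The strongest member was RpS27, whose protein carries a zinc finger, with a pooled signal of 455 and rank 631 of 30000. Signals are peak heights on the scale of their own list, so ranks are used across lists: RpS27 ranked 479 in replicate 1, 806 in replicate 2 and 607 in replicate 3. RpS27 was also the only member with 2 IDR peaks, the weaker of signal 82.1 at -219 bp. RpS20, a protein of the subunit head near the mRNA entry, had a pooled signal of 317 and ranked 936, 2279 and 875 in replicates 1, 2 and 3. RpS10b, also a head protein, had a signal of 293 and ranked 1720, 987 and 2438. All 3 genes were thus strong in every replicate, and stood lowest in replicate 2 for RpS27 and RpS20 and in replicate 3 for RpS10b.

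RpS25, a head protein known for its part in translation from internal ribosome entry sites, had a signal of 259 and ranked 1645, 1836 and 1469 in replicates 1, 2 and 3. RpS4, which binds rRNA in the body of the subunit, had 217 and ranked 1778, 1591 and 2399. RpS5a, which lines the mRNA exit, had 208 and ranked 2035, 2875 and 1784. None of these 3 genes ranked lower than 2875 in any replicate. RpS28b had 185 and ranked 3486, 2362 and 1728, and RpS21, a neighbour of sta in the subunit, had 181 and ranked 3024, 4153 and 1493. The median signal of all IDR peaks was 145.0 and the upper quartile 245. Of the 24 members with an IDR peak, 13 were above that median and 4 above that quartile, while the strongest peak at any other protein-coding gene reached 2760.

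Below these 8 genes followed 13 members with pooled signals from 172 to 103. RpS27A, which is made as a fusion with ubiquitin, had 172, and RpS18 and RpS16, both near the P site, had 165 and 161. The gene sta had 154 and ranked 3898, 2771 and 7076 in replicates 1, 2 and 3, so it was clearly lower in replicate 3. RpS12, known in flies for its role in the competition between Minute and normal cells, had 138, and RpS23, a protein of the decoding centre, had 128. RpS29 had 121 and RpS7 had 117. RpS14b and RpS14a had 154 and 119, and RpS15Aa had 103. The genes nearest the lower end of the IDR list, which ended at a signal of 79.6, were RpS3A with 94.6, RpS6 with 93.1 and RpS26 with 79.8. Just outside it were RpS15 with 73.7, RpS19a with 70.1 and RpS2 with 69.2. The step between RpS26 and RpS15 is small, so the line between members with and without an IDR peak falls within a continuous run of signals.

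**Figure D1:**
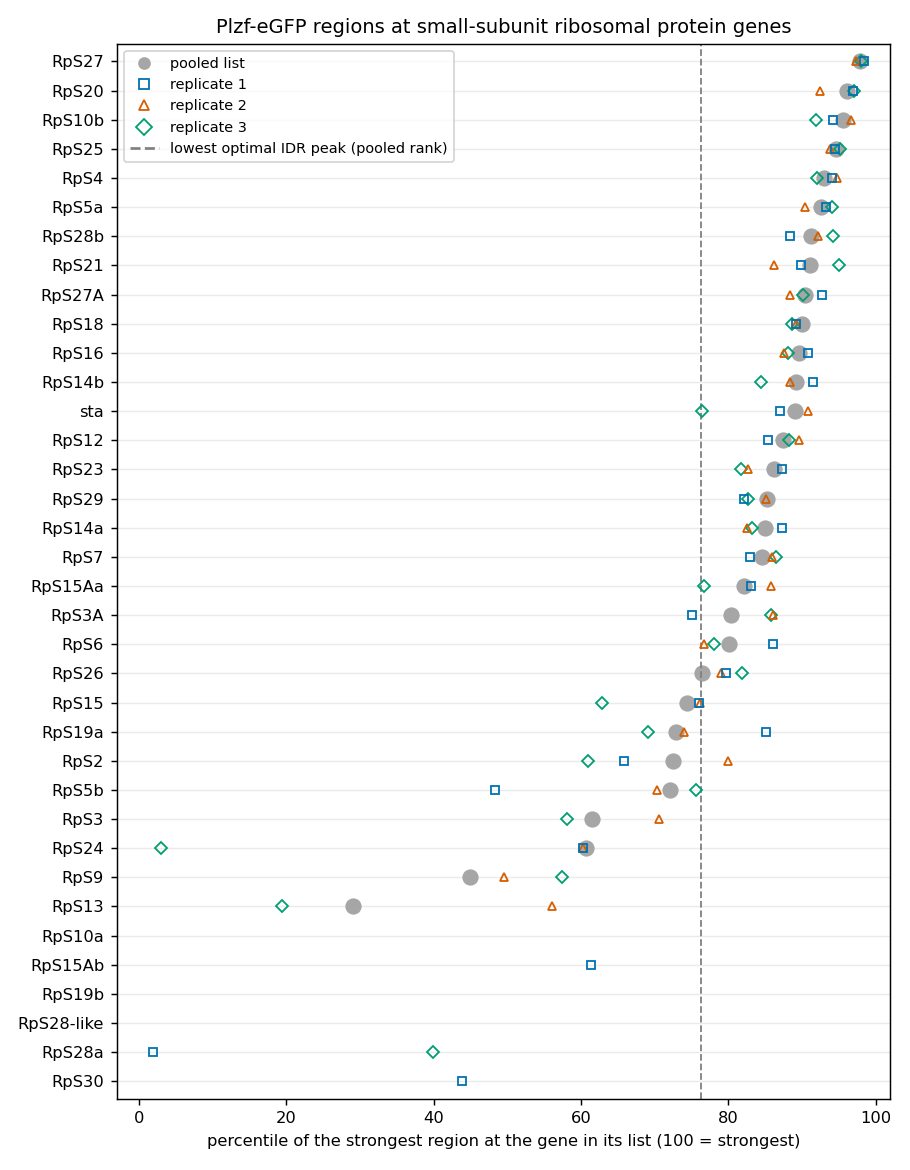
Percentile of the strongest region at the individually named small-subunit genes in the pooled list (grey circles) and in the lists of replicates 1, 2 and 3 (open symbols), where 100 is the strongest of 30000 regions and genes with no symbol had no region. The dashed line is the pooled rank of the lowest IDR peak, with RpS26 just to its right and RpS15 just to its left in the pooled list.

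The 15 members without an IDR peak fell into 8 with a weaker pooled region and 7 with none. The 8 were RpS15, RpS19a, RpS2, RpS5b, RpS3, RpS24, RpS9 and RpS13, with pooled ranks from 7697 to 21281. RpS19a, whose human counterpart is mutated in Diamond-Blackfan anaemia, ranked 4481 in replicate 1, 7815 in replicate 2 and 9262 in replicate 3. RpS2, a protein of the mRNA entry, ranked 10263, 5994 and 11694. RpS19a and RpS2 were the only 2 of the 15 genes among the strongest 7096 regions of any replicate, each in a single one. RpS15 ranked 7180, 7139 and 11144, and RpS5b ranked 15493, 8916 and 7301. RpS24 ranked 11933, 11901 and 29117, so replicate 3 was again the low one. RpS3, which guards the mRNA entry, had ranks of 8815 in replicate 2 and 12551 in replicate 3 and no region in replicate 1. RpS9, which binds rRNA early in assembly, had 15119 and 12767 and RpS13 had 13166 and 24184 in the same 2 replicates. RpS3, RpS9 and RpS13 were all missing from the list of replicate 1.

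Of the 7 genes with no pooled region, 3 had no region in any list: RpS10a, RpS19b and RpS28-like. RpS28a had weak regions in replicate 1 (rank 29446) and replicate 3 (rank 18036). RpS15Ab (rank 11601) and RpS30 (rank 16851), which is made as a fusion with a ubiquitin-like protein, had a region in replicate 1 only. A list of 30000 regions has an end, so a gene with no region had no signal above that end, which is not the same as no binding. With a window of 1000 bp, RpS19b also had an IDR peak, of signal 647 and at -907 bp, outside the 500 bp of the rule.

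The replicates gave nearly the same count of members. Among the strongest 7096 regions of replicate 1 there were 24 members, of replicate 2 there were 25 and of replicate 3 there were 24. These are 61.5%, 64.1% and 61.5% of the members, against 20.6%, 19.4% and 21.7% of all protein-coding genes in replicates 1, 2 and 3. The mean was 62.4% ± 1.48 for members and 20.6% ± 1.15 for all protein-coding genes (SD, n = 3 replicates each), so the distance between the shares was many times the spread between replicates. In the pooled list the median percentile of the strongest region was 85.8 over the 32 members with one, and 73.6 over all protein-coding genes with one. By replicate it was 86.0, 85.9 and 83.0 for members, a mean of 85.0 ± 1.73, and 73.3 ± 2.09 for all protein-coding genes (SD, n = 3 each). The number of cells and the binding per cell cannot be told apart in these ranks.

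Of the 24 members with an IDR peak, 23 ranked within the strongest 7096 of every replicate, and RpS3A, at rank 7478 in replicate 1, was the exception. The pooled list was made from these replicates, so this does not measure their agreement. By a 50% reciprocal overlap of the IDR peak with those regions, 18 members (46.2%) had a peak held in all 3 replicates, against 11.4% of all protein-coding genes. The other 6 were RpS21, RpS12 and RpS7, held in 0 replicates, RpS25, held in 1, and RpS3A and RpS6, held in 2. The peaks of RpS21, RpS12, RpS7 and RpS25 were 186, 128, 111 and 199 bp wide, while the median region at members in replicate 1 was 400 bp wide, so the reciprocal rule is hard for such narrow peaks to meet. With any overlap of 1 bp, 23 members (59.0%) had a peak held in all 3 replicates, against 14.7% of all protein-coding genes. Across the 29 members with a region in all 3 replicates, Spearman's rho of the ranks was 0.799 between replicates 1 and 2, 0.824 between replicates 1 and 3, and 0.834 between replicates 2 and 3, given as a description over genes that share each library.

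The position of the summit set the members beside the TSS, where few other summits lay. Within 60 bp of a TSS there were 21 of 24 member summits (87.5%), against 13.2% of the summits at other genes. The quartiles were -50.3 and -1.25 bp at members, and -245 and -70 bp at other genes, so the middle ranges of the groups did not overlap. Upstream of the TSS there were 18 member summits, and 6 were downstream. At the 2737 other genes with an IDR peak, 2354 summits were upstream and 378 downstream, so an upstream summit was not particular to the members. The most downstream was that of RpS15Aa at 37 bp. At RpS29 the summit was 1 bp and at sta -2 bp from a TSS.

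The replicates showed the same placement. The median offset in members was -30 bp in replicate 1, -5 bp in replicate 2 and -25 bp in replicate 3, over the members among the strongest 7096 regions. It was -150, -140 and -144 bp at other genes in the same replicates. The means were -20 ± 13.2 bp at members and -145 ± 5.03 bp at other genes (SD, n = 3 replicates each). The share within 60 bp was 72.5% ± 6.82 at members and 14.0% ± 0.958 at other genes (SD, n = 3 each). At a single member the summit moved by a median of 32.5 bp between its highest and lowest replicate, from 17 bp at RpS25 and RpS16 to 379 bp at RpS6, so a difference of that size between members is within the replicate spread. Distances of 60 bp were chosen with the offsets known.

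**Figure D2:**
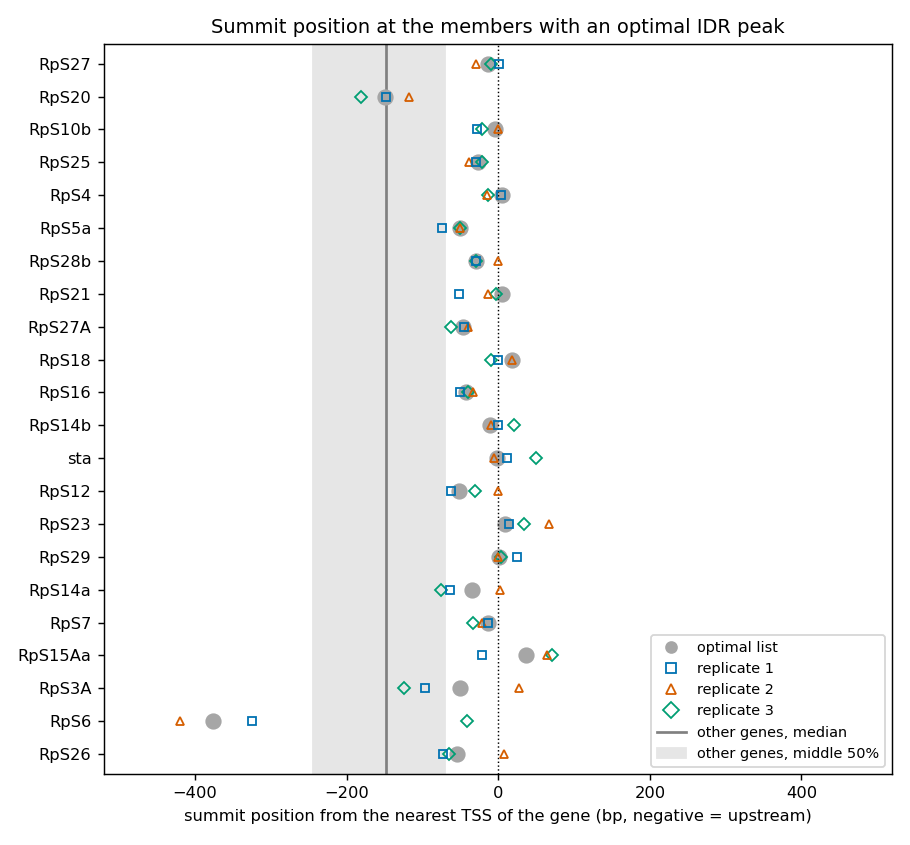
Summit position from the nearest TSS, in bp, at the named members with an IDR peak (grey circles, optimal IDR list) and in replicates 1, 2 and 3 (open symbols), beside the median of other genes (grey line) and their middle 50% (grey band, from -245 to -70 bp). Most IDR summits lie within 60 bp of the TSS, and those of RpS6, at -377 bp, and RpS20, at -149 bp, lie further upstream.

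The exceptions included RpS6, the main target of S6 kinase, at -377 bp and RpS20 at -149 bp. RpS20 lay at -148, -118 and -181 bp in replicates 1, 2 and 3, so it was upstream in every replicate. RpS6 lay at -325 and -420 bp in replicates 1 and 2 and at -41 bp in replicate 3. Its promoter held 2 pooled regions, the IDR peak and a weaker one of signal 65.2 at -43 bp. The IDR summit was 172 bp from a TSS of bys, which encodes a small-subunit assembly factor. RpS6 was the only member whose IDR summit was nearer to a TSS of another protein-coding gene than to its own. When the nearest coding TSS had to be that of the gene itself, 23 members had an IDR peak. Over all protein-coding genes the share was 15.3% with that condition and 19.8% without it. At RpS27A the summit was equally far, 46 bp, from its own TSS and from a TSS of Ip259.

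A neighbouring promoter was near the peak at about the same share of members as of other genes. At 12 of the 24 members (50%) another protein-coding TSS lay within 500 bp of the summit, against 52.2% of other genes with an IDR peak. Besides RpS6 these included RpS27A beside Ip259 (46 bp from the summit), RpS27 beside Nup37 (130 bp), RpS20 beside CG17271 (184 bp), sta beside inc (185 bp) and RpS25 beside CG4820 (221 bp). They also included RpS21 beside CG3104 (297 bp), RpS18 beside plu (313 bp), RpS14a beside Dhdds (356 bp) and RpS16 beside CG4294 (417 bp). These regions cannot be assigned to the ribosomal protein gene alone. Over the other 12 members the median offset was -12.5 bp, against -161 bp over all protein-coding genes with no such neighbour, a split chosen after seeing the data. No IDR summit lay inside a member gene beyond the window. Many member genes are short, which leaves little room there, and no share over all protein-coding genes is given beside this count.

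Member summits were richer in G and C than those of other genes. Within 50 bp of the summit the GC content averaged 45.9% ± 8.93 at the 24 members, and 33.2% ± 9.82 at 2737 other genes (SD over genes). In windows 300 bp upstream and downstream, members had 35.0% and 45.0%, and other genes 43.0% and 46.7%. Member summits were thus higher in GC than the sequence upstream of them, and the summits of other genes were lower. The lowest member was RpS6 with 23.8%, and the highest was RpS5a with 60.4%. Over the replicates' own summits the mean was 45.8% ± 0.642 at members and 33.6% ± 0.858 at other genes (SD, n = 3 replicates each).

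Base composition moved with the position of the summit. At the 21 members with a summit within 60 bp of the TSS the GC content was 48.1% ± 6.71, and at the 3 members further away it was 30.0% ± 5.97 (SD over genes). Other genes had 40.5% ± 9.97 with a summit within 60 bp (362 genes) and 32.1% ± 9.31 with a summit further away (2375 genes). Around the TSS of members with an IDR peak, the mean GC content in bins of 20 bp was lowest, at 27.9%, from -180 to -161 bp, and highest, at 54.8%, from 20 to 39 bp. Around the TSS of other genes with an IDR peak it was lowest, at 33.0%, from -160 to -141 bp. In both sets the sequence poorest in GC lay upstream, and 21 of 24 member summits lay within 60 bp of the TSS, downstream of it. The part of composition in the placement of the summits was not tested.

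**Figure D3:**
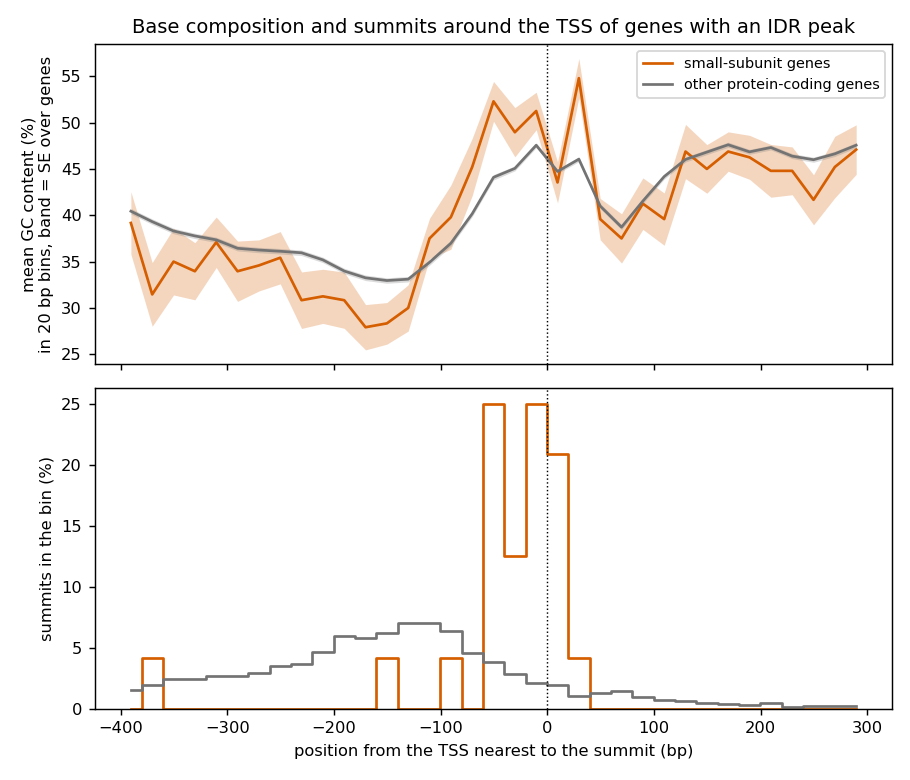
Upper panel, mean GC content in bins of 20 bp around the TSS nearest to the summit, with the SE over genes as a band, for the 24 small-subunit genes (orange) and 2737 other genes (grey) with an IDR peak. Lower panel, share of summits per bin, with member summits beside the TSS and those of other genes around a median of -148 bp.

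The TCT initiator was searched as TCTTT or CCTTT on the strand of the gene, with its C within 5 bp of an annotated TSS. A match was present at 25 of 39 members (64.1%), against 3.31% of all protein-coding genes. The C was at the TSS itself at RpS7 and RpS30, and 2 to 5 bp from it at the other members with a match. A match is of letters, and use of the initiator at the members was not tested. The initiator is printed here for 6 of the strongest members that have a match, with its letters in capitals. Each sequence has 12 bases on each side of the annotated TSS that has the initiator. It is from the RefSeq genome, assembly dm6, 5′ to 3′ on the strand of the gene. At RpS27, RpS4 and RpS21 that TSS is downstream of the TSS nearest to the summit.
RpS27 (chr3R:25247460-25247484, minus strand): cgatttaccccacttCCTTTtccgt
RpS25 (chr3R:11216275-11216299, minus strand): cgtttccgccctccaTCTTTctgca
RpS4 (chr3L:13041789-13041813, plus strand): cgcccgcaaatctgCCTTTtccttt
RpS5a (chrX:17148252-17148276, minus strand): actgccgtaacatgtTCTTTttcag
RpS21 (chr2L:2856099-2856123, plus strand): tccagctgtcattTCTTTctctttt
RpS27A (chr2L:10408340-10408364, plus strand): gctgtgtgtgtgtTCTTTctttcct
With the 5′-most TSS of each gene only, 12 members had it, against 2.19% of all protein-coding genes, and members had a mean of 1.69 annotated TSSs, against 1.41 for all protein-coding genes. The initiator was present at members with and without an IDR peak, and least often at members with no pooled region. A link between the initiator and a region was not tested. The initiator was at 17 of the 24 members with an IDR peak and at 7 of the 8 with a weaker pooled region. Of the 7 members with no pooled region it was at 1, RpS30. Of the 25 members with it, 17 had an IDR peak with a median offset of -27 bp, and of the 14 members without it 7 did, with a median of -5 bp.

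Outside the ribosomal protein genes, genes with a match to the TCT letters stood nearer to genes without a match than to the members. Whether these genes or the members start transcription at a TCT initiator was not tested, so the shares describe the letters alone. Of 406 genes with a match outside the cytosolic ribosomal proteins, 25.6% had an IDR peak. Their median offset was -130 bp, with 16.3% within 60 bp. Of 13446 other genes without a match, 19.3% had an IDR peak, with a median offset of -151 bp and 12.3% within 60 bp. The members with the initiator had 15 of 17 summits within 60 bp and those without it 6 of 7. This split was chosen after the first results were seen.

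Short sequence motifs were counted on both strands within 50 bp of the summits. The DNA replication-related element (DRE), TATCGATA, the site of the factor DREF, was in 4 of 24 member windows (16.7%) and in 2.70% of those at other genes. The 4 were RpS12, RpS14a, RpS25 and RpS29, with the element in capitals in the sequences that follow and 10 bases on each side, from the RefSeq genome, assembly dm6, on the strand of the gene.
RpS12 (chr3L:13023301-13023328, plus strand): tctgcgaaacTATCGATAtttgtaccaa
RpS14a (chrX:7933668-7933695, plus strand): acacactcccTATCGATAagctatcgcc
RpS25 (chr3R:11216329-11216356, minus strand): caccaccaacTATCGATAggcaggcgag
RpS29 (chr3R:9778047-9778074, plus strand): tcgtggaaaaTATCGATActgccacccc
The element lay 14, 26, 29 and 17 bp from the summits of RpS12, RpS14a, RpS25 and RpS29. Its sequence holds CGATA, the core of the BEAF-32 site, so the counts of these motifs overlap. CGATA was in 10 of 24 member windows (41.7%) and in 17.9% of those at other genes.

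Other motifs differed in both directions. CAGCTG, the E-box of core promoter motif 5, was at 4 member summits (16.7%), those of RpS14b, RpS16, RpS21 and RpS27, and at 4.64% of others. At RpS27 it stands within the capitals of the sequence printed above. GGTCACAC, part of core promoter motif 1, was at 4.17% of member summits and at 1.06% of others. TATAAA was at 2 member summits (8.33%), those of RpS27A and RpS3A, and at 23.3% of others. GATA sites, searched as TGATAA and as the variant AGATAA, were at 0 of 24 member summits and at 15.9% of others. Of other genes with a summit within 60 bp of the TSS, 13.0% had a GATA site there and 8.84% a DRE. TAATATA and TCTTAAA, 7-base sequences that led at the summits of the whole list, were also at 0 of 24, and at 8.88% and 5.22% of others. A count of 0 of 24 allows a share of up to 12.5%, counting error only. A match is a string of letters and not a shown binding site, and the share of A and T in the windows, which moves with these counts, was not separated from them.

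In the promoters themselves, from 250 bases before to 50 after any TSS, the contrast was different. The DRE was in those of 13 of 39 members (33.3%), against 10.1% of other genes, and CGATA in 29 (74.4%), against 53.1%. GATA sites were in those of 14 members (35.9%), against 42.5%, and TATAAA in 21 (53.8%), against 51.3%. TAATATA was in 7 (17.9%), against 16.1%, and TCTTAAA in 4 (10.3%), against 10.6%. Sequences that were at 0 member summits were therefore present in member promoters at about the share of other promoters, outside the summit windows. GGTCACAC was in 6 member promoters (15.4%), against 8.69%, and CAGCTG in 8 (20.5%), against 22.3%. Of the 13 members with a promoter DRE, RpS13, RpS15Ab, RpS24 and RpS30 had no IDR peak, and RpS16 and RpS6 had their summit over 300 bp from it.

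The copies of duplicated genes differed in every pair but RpS14a and RpS14b. RpS5a had an IDR peak of signal 208 and RpS5b a weaker pooled region of signal 68.1 at rank 8358, with 79.4% identity between their proteins. RpS10b had an IDR peak of signal 293 and RpS10a no region, with 72.9% identity. RpS28b had an IDR peak of signal 185, and neither RpS28a, with 81.5% identity to it, nor RpS28-like, with 38.2%, had a pooled region. RpS19a had a weaker pooled region, of signal 70.1, and RpS19b none, with 65.2% identity. Within 500 bp of a TSS, the copy with the stronger region was on the X chromosome in each of these pairs and the other on an autosome. With 1000 bp the order of RpS19a and RpS19b turned, since the IDR peak of signal 647 at -907 bp then counted for RpS19b.

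RpS15Aa, on X, had an IDR peak of signal 103, and RpS15Ab, on an autosome, had a region only in the list of replicate 1, with 97.7% identity of the proteins and 98.2% of the coding sequences. RpS14a and RpS14b lie next to each other on X with TSSs 1156 bp apart, encode the same protein (100% identity), and both had an IDR peak, of signal 119 and 154. Their promoters aligned at 49.8% identity, and the promoters of the other pairs at 42.8% to 47.5%, so copies that are nearly alike in coding sequence had different promoter sequence. How reads that fit both copies were counted is not given in the sources used here, which leaves the values of these 4 genes less certain where a region reaches the coding sequence. Without these 4 genes, 21 of 35 members had an IDR peak, against 19.8% of all protein-coding genes.

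**Figure D4:**
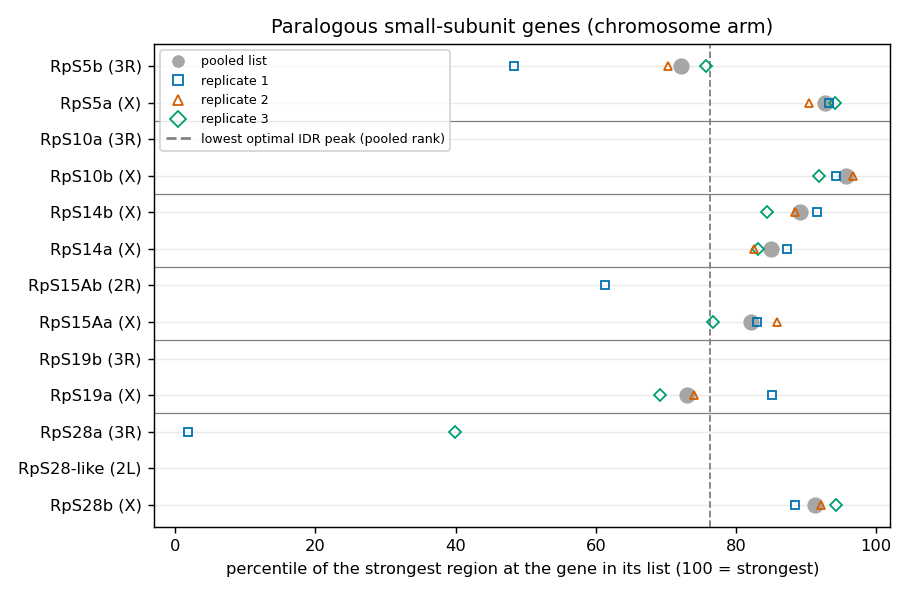
Percentile of the strongest region in the pooled list (grey circles) and in the lists of replicates 1, 2 and 3 (open symbols) for the copies of duplicated small-subunit genes, grouped by family, with the chromosome arm in parentheses. In the pooled list RpS5a, of signal 208, lies to the right of RpS5b, of signal 68.1, no other autosomal copy has a pooled region, and RpS10a, RpS19b and RpS28-like have no region in any list.

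By chromosome, 8 of the 9 members on X had an IDR peak, against 19.1% of other genes on X, and the exception was RpS19a. On 3R it was 6 of 12, against 20.6% of other genes, on 2L 3 of 6, against 19.9%, on 2R 3 of 7, against 18.2%, and on 3L 3 of 4, against 20.7%. Chromosome 4 holds RpS3A, a protein of the platform near the mRNA exit, as its only member. It had an IDR peak, as did 5 of 79 other genes of that chromosome (6.33%). The count on X holds the X copies of the duplicated genes described above.

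Cytosolic large-subunit genes had values near those of the small subunit, and other groups of translation genes stood nearer to all genes in the share with a peak. Of 54 cytosolic large-subunit genes, 38 (70.4%) had an IDR peak, with a median signal of 190, a median offset of -41.5 bp, 71.1% of summits within 60 bp and a GC content of 44.9%. These values stand close to those of the small subunit, 61.5%, 154, -20.5 bp, 87.5% and 45.9%, and in the replicates the shares among the strongest 7096 were 62.4% ± 1.48 for the small and 70.4% ± 1.85 for the large subunit (SD, n = 3 each). Of 26 mitochondrial small-subunit genes, 10 (38.5%) had an IDR peak, at a median of -191 bp, with 0 of 10 within 60 bp and a GC content of 29.0%. All 10 of these summits (100%) lay within 500 bp of another protein-coding TSS, against 50% at the small-subunit members. These 10 peaks therefore cannot be assigned to the mitochondrial genes alone. No mitochondrial gene of this list had a TCT initiator. Of 44 initiation factor genes, 12 (27.3%) had an IDR peak, at a median of -53 bp and a GC content of 42.2%. Of 21 genes of a hand-made list for small-subunit assembly and rRNA modification, 4 (19.0%) had an IDR peak, at a median of -130 bp. Not all genes of this list are small-subunit assembly factors, so the share does not describe such factors alone. The 4 were bys, whose peak is the one at RpS6, NHP2, Non3 and Rack1. Rack1 encodes a protein bound to the mature 40S subunit, and its summit lay at 28 bp. These gene lists were compared by their counts, with no test of the difference.

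**Figure D5:**
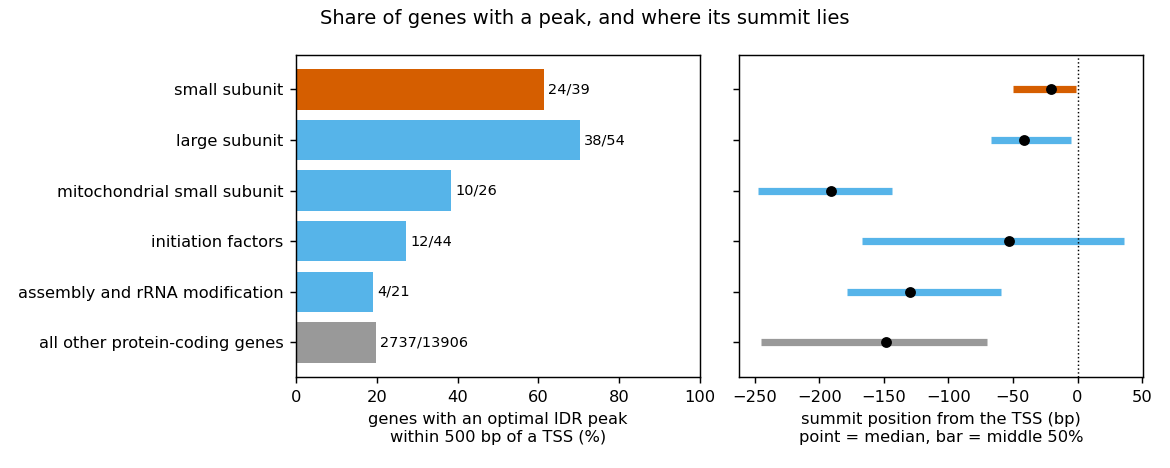
Left, percentage of genes that had an IDR peak by the 500 bp rule, with counts beside the bars, for the small-subunit genes, 4 other groups of translation genes and all other protein-coding genes. Right, summit position from the TSS in bp, with the median as a point and the middle 50% as a bar, from -50.3 to -1.25 bp for the small subunit and from -245 to -70 bp for all other genes.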

How the data were processed

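Per the labels, ChIP-seq was run on 3 biological replicates of 1 group, with chromatin sonicated to 200 to 800. Per the file headers and notes, the authors deposited narrowPeak lists for each replicate, the pool and the optimal IDR selection, called with a control. The signal value and the −log10 q-value are the authors', and the q-value was not used. Not given in the sources used here are the aligner, the caller, their versions, the IDR threshold and the handling of reads with several matches. Depth is unknown. The dm3 lists were not used.

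Summits (start plus offset, dm6, counted from 1) were matched to TSSs of Ensembl release 115 within 500 bp, with the strongest region kept per gene. Sequence came from the RefSeq genome. Python 3.11.15, numpy 2.4.6, scipy 1.17.1 and Biopython 1.88 were used, and the scripts were tested on constructed data. The gene lists were described by counts and medians, with no test. All members and lists, and the 7-base sequences, were chosen with earlier results of these data known. Full values were given for the 8 strongest members, the 3 on either side of the end of the optimal list, members without an IDR peak, paralogs and sta. A few members enter all counts, and their own values are not reported here. Alternatives changed the window, TSS choice, overlap rule, signal minimum, GC window and replicates. Nothing in the labels says that the replicates came from separate cultures or crosses, so SDs may be technical.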

Additional observations from a re-analysis of the deposited data

How the results depend on the processing

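No paired analysis was possible because every sample belongs to a single group. The count of 24 members with an IDR peak was 13 for IDR peaks of above-median signal (all protein-coding genes 11.6%), a smaller set of peaks, and 18 to 19 without 1 replicate, where only peaks held by both others count. It was 23 with a window of 250 bp (all protein-coding genes 15.1%) and 25 with 1000 bp (23.6%). The count of 18 members with a peak held in all replicates was 23 with an overlap of 1 bp (all protein-coding genes 14.7%), and 18 to 19 without 1 replicate (12.5% to 13.8%). The mean GC content at member summits was 43.2% within 100 bp of the summit, 49.8% for peaks of above-median signal and 48.1% for the 12 peaks with no other coding TSS within 500 bp. The same 3 settings gave 35.0%, 31.2% and 35.2% for all protein-coding genes. The last setting, and the count without the near-identical copies, were chosen after seeing the data. TCT initiators were found at 12 members with the 5′-most TSS only (all protein-coding genes 2.19%) and at 29 within 10 bp (6.35%). Percentiles per replicate were 84.4 to 86.0 without 1 replicate, and the median summit offset was -8 to -20.5 bp in all alternatives run.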
